A study of Caenorhabditis elegans with 2 samples.

Results

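The 6 genes described here are hif-1, egl-9, vhl-1 and rhy-1 of the hypoxia pathway and skn-1 and wdr-23 of the oxidative stress response, 6 of 19973 protein-coding genes of Caenorhabditis elegans. They were examined for binding of the nuclear hormone receptor NHR-20 in whole hermaphrodite L1 larvae, by chromatin immunoprecipitation and sequencing. The larvae were of strain OP515, genotype unc-119(tm4063) III; wgIs515, in which a stably inserted transgene makes NHR-20 with a C-terminal GFP-FLAG tag. They had been bleached, starved and synchronized at L1 and were collected 6 hours later, and the description of the samples names an anti-GFP antibody for the immunoprecipitation. A separate antibody label gives nhr-20, so whether the antibody saw the tag or the receptor itself rests on that description. There was 1 group of 2 biological replicates, both set against the same control alignment, so no comparison between conditions was possible and no test was made. The promoter that drives the transgene is not given in the sources used here, and in whole larvae binding in a few cells and in many cells cannot be told apart. An immunoprecipitation from larvae without the tag was not analysed here.

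The values are those of the authors' peak lists: 30000 candidate regions in the pooled replicates and in each replicate, and 6423 regions that passed the authors' threshold on the pooled list. Every region has a summit and a signal, a score of the peak caller whose scale is not given in the sources used here. The signal ran from 86 to 2711 with a median of 169.5 in the thresholded list. A summit was counted at a gene when it lay in the gene or up to 5 kb upstream, and an offset is the distance in bp from the outermost transcript start, negative upstream. The 6 genes were selected on values of these same lists, hif-1 for its very strong summit upstream, so their counts and ranks are a description. The 6 genes held 55 of the 30000 candidate summits and 18 of the 6423 thresholded summits.

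In C. elegans, HIF-1 is the transcription factor that turns on the response to low oxygen, with AHA-1 as its partner. When oxygen is plentiful the prolyl hydroxylase EGL-9 marks HIF-1, the VHL-1 protein recognises the mark, and a CUL-2 ubiquitin ligase sends HIF-1 to be degraded. RHY-1, a membrane protein of the acyltransferase family, also holds HIF-1 activity down, and rhy-1 and egl-9 are themselves raised by HIF-1. SKN-1, the nematode relative of mammalian Nrf2, drives detoxification genes in the larval and adult intestine and specifies endomesoderm in the embryo. WDR-23 brings SKN-1 to a CUL-4 ligase for degradation, much as Keap1 acts on Nrf2 in mammals.

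The 201 bases centred on the strongest thresholded summit are given for hif-1, egl-9, rhy-1 and skn-1, so that the words counted at these summits can be read in place. That of wdr-23 is not shown here. The sequences are from the RefSeq genome (WBcel235, the same build as ce11) and are given 5′ to 3′ on the plus strand. Capitals mark 6-base words that were searched on both strands. They are the simple repeat word GAGAGA, the HIF-1 word TACGTG, the SKN-1 core words TATCAT and also TGTCAT, and TGATAA, the word of GATA factors. The windows are chrV:20778315-20778515 for hif-1, chrV:10466660-10466860 for egl-9, chrII:9160301-9160501 for rhy-1 and chrIV:5657178-5657378 for skn-1.
hif-1: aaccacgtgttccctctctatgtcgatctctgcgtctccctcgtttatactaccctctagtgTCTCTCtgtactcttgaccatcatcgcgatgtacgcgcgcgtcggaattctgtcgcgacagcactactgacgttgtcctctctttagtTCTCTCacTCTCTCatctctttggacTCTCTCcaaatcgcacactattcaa
egl-9: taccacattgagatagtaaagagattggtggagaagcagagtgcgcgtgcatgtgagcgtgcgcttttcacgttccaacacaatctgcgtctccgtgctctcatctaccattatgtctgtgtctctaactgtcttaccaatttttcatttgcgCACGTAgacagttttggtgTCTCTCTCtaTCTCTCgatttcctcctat
rhy-1: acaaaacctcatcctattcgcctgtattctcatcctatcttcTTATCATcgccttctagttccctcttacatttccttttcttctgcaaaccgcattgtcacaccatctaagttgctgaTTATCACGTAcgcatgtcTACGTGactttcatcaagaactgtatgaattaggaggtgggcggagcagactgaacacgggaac
skn-1: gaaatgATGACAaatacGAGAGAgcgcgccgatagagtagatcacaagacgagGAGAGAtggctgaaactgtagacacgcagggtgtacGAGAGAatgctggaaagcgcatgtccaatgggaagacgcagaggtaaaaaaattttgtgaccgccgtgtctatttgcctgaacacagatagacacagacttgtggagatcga
The hif-1 window held 4 copies of the GAGAGA word, all read as its complement on the plus strand, and none of the other words. The egl-9 window held 3 overlapping or adjoining copies of the same word and 1 copy of TACGTG, the word bound by HIF-1 in hypoxia-responsive genes. In the rhy-1 window TACGTG occurred at 2 places, 1 of them overlapping 1 of the 2 copies of the GATA word TGATAA, and the other copy of that word overlapped a TATCAT. The skn-1 window held 3 copies of GAGAGA and 1 of TGTCAT, a core of SKN-1 sites.

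A thresholded summit was found at 5 of the 6 genes, and the same 5 had at least 3. With only summits at or above the median signal, 2 genes, hif-1 and rhy-1, had at least 3, and egl-9, skn-1 and wdr-23 had 2 each. Over all protein-coding genes, 38.4% had at least 1 thresholded summit and 4.09% had at least 3, with a median of 0 and a mean of 0.578 summits per gene. The strongest summit of hif-1, egl-9, skn-1 and wdr-23 was among the strongest 5% of the thresholded list, which held 321 regions, a limit chosen after the values were seen. By that limit 2.97% of all genes had such a summit. A summit was found at 5 of the 6 genes in a promoter window (1000 bp before to 300 bp after a transcript start), against 20.6% of all genes. The genes were chosen on these lists, so nothing is read from the difference between these shares.

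The stretches searched at the 6 genes were 6163 bp at vhl-1 to 14346 bp at skn-1, against a median of 7023 bp over all genes. Among the 14187 genes with a stretch as long as those from vhl-1 to skn-1, 39% had a thresholded summit and 3.89% had at least 3. This range takes in most of the 19973 genes, so its shares could hardly differ from those of all genes. The stretches of hif-1, egl-9, wdr-23 and skn-1 were 9854 to 14346 bp, above the median, so stretch length is not accounted for. The order of the genes by their strongest summit was hif-1 (signal 2109), egl-9 (961.2), wdr-23 (954.6), skn-1 (747.4) and rhy-1 (316.4), and vhl-1 came last with none past the threshold. Egl-9 and wdr-23, which are next to each other in this order only, changed places between replicates. The strongest wdr-23 summit ranked above that of egl-9 in replicate 1 (93 against 117) and under it in replicate 2 (197 against 127). Hif-1 stood first in both replicates, and 99.7% of the genes with a thresholded summit had a weaker strongest summit than hif-1.

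**Figure D1:**
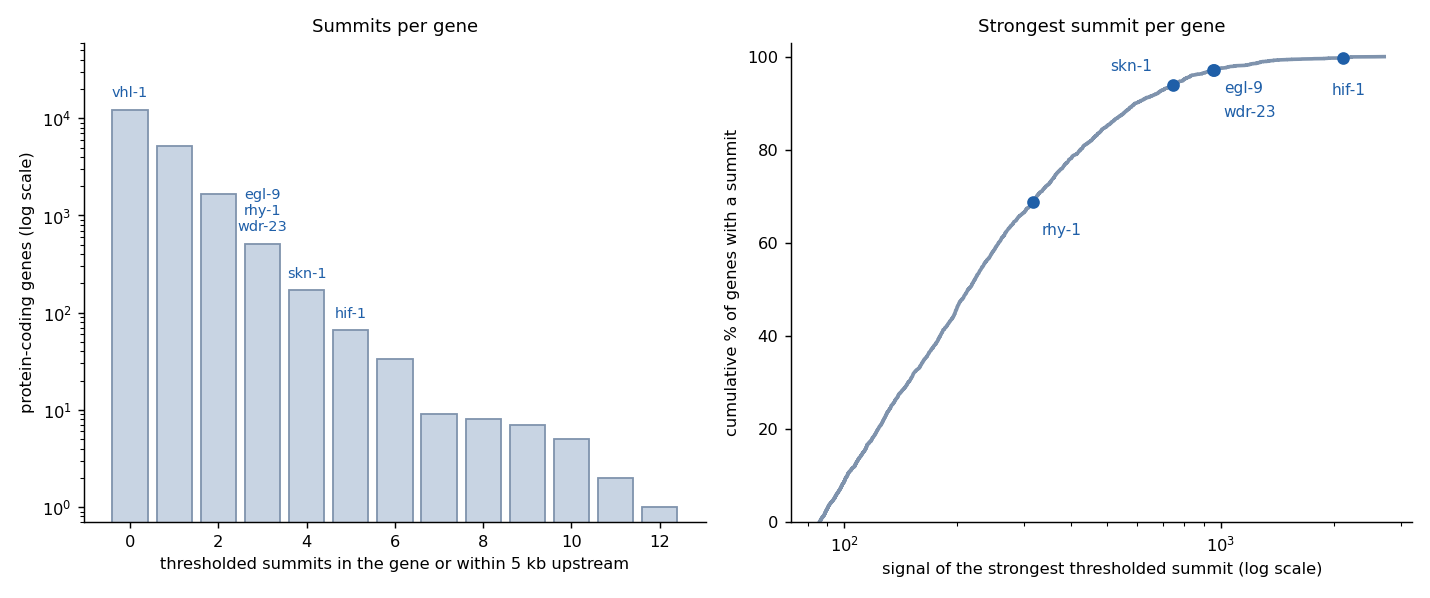
Left, the number of protein-coding genes (log scale) by the count of thresholded summits in the gene or within 5 kb upstream. Right, the cumulative percent of genes with a summit by the signal of their strongest summit (log scale). Names and points mark the 6 genes: vhl-1 stands at 0 summits and hif-1 at 5, and hif-1 lies at the upper end of the curve at a signal of 2109. Rhy-1, at 316.4, lies above 68.7% of the genes with a thresholded summit.

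The hif-1 gene (WBGene00001851, chrV:20780407-20785260, plus strand, 6 transcripts) carried the strongest binding of the 6. Its main region, chrV:20778186-20778664, had its summit at 20778415, an offset of -1992 bp. The pooled signal was 2109, rank 10 of 30000, with a signal of 1376 and rank 6 in replicate 1 and a signal of 757.9 and rank 13 in replicate 2. Each list has its own signal scale, so the ranks are what can be set side by side, and in all 3 lists the summit stood among the strongest few regions of the genome. It lay in no promoter window of any gene, and its own start was the nearest protein-coding start.

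A further 4 thresholded summits flanked it, each with a lower signal. The farthest upstream, chrV:20776837-20777072 at -3429 bp, had a signal of 445.8 and rank 780, with rank 723 in replicate 1 and 891 in replicate 2. It was nearer to the start of F38A6.4, a divergent gene on the minus strand 1609 bp away, than to hif-1. Between the main summit and the gene lay summits at -704 bp (chrV:20779644-20779839, signal 119.2, rank 4652) and -243 bp (chrV:20780067-20780260, signal 163.3, rank 3347). The pair were the weakest of the 5, with ranks of 4282 and 2719 in replicate 1 and 4061 and 5486 in replicate 2. The fifth, chrV:20782289-20782513 at +1975 bp, had a signal of 382.6 and rank 1024, and ranks of 842 and 1470 in replicates 1 and 2. It lay in an intron of the longer transcripts and only 90 bp upstream of the start of isoform c, so it is a promoter summit of the short isoform.

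The isoforms of hif-1 start at 20780407 (b and d), 20780413 (a), 20781319 (e and f) and 20782472 (c). Measured from these starts, the main summit had offsets of -1992, -1998, -2904 and -4057 bp, so no isoform start comes closer to it than that of b and d. F38A6.4 and F38A6.5, divergent genes upstream, also had the main summit within 5 kb of their starts, at -3046 and -4668 bp. At hif-1, 5 candidates stayed under the threshold, with signals of 21.4 to 51.3. The strongest of them, at -4928 bp (signal 51.3, rank 9934), was 110 bp from the start of F38A6.4, and the others lay at -4424 bp (21.4), +977 bp in a coding exon (34.8), +3246 bp in an intron (38) and +4774 bp in the 3′ UTR (25.6). Of these 5, 1 was matched in both replicates. The candidate at +977 bp was 65 bp past the start of isoforms e and f.

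**Figure D2:**
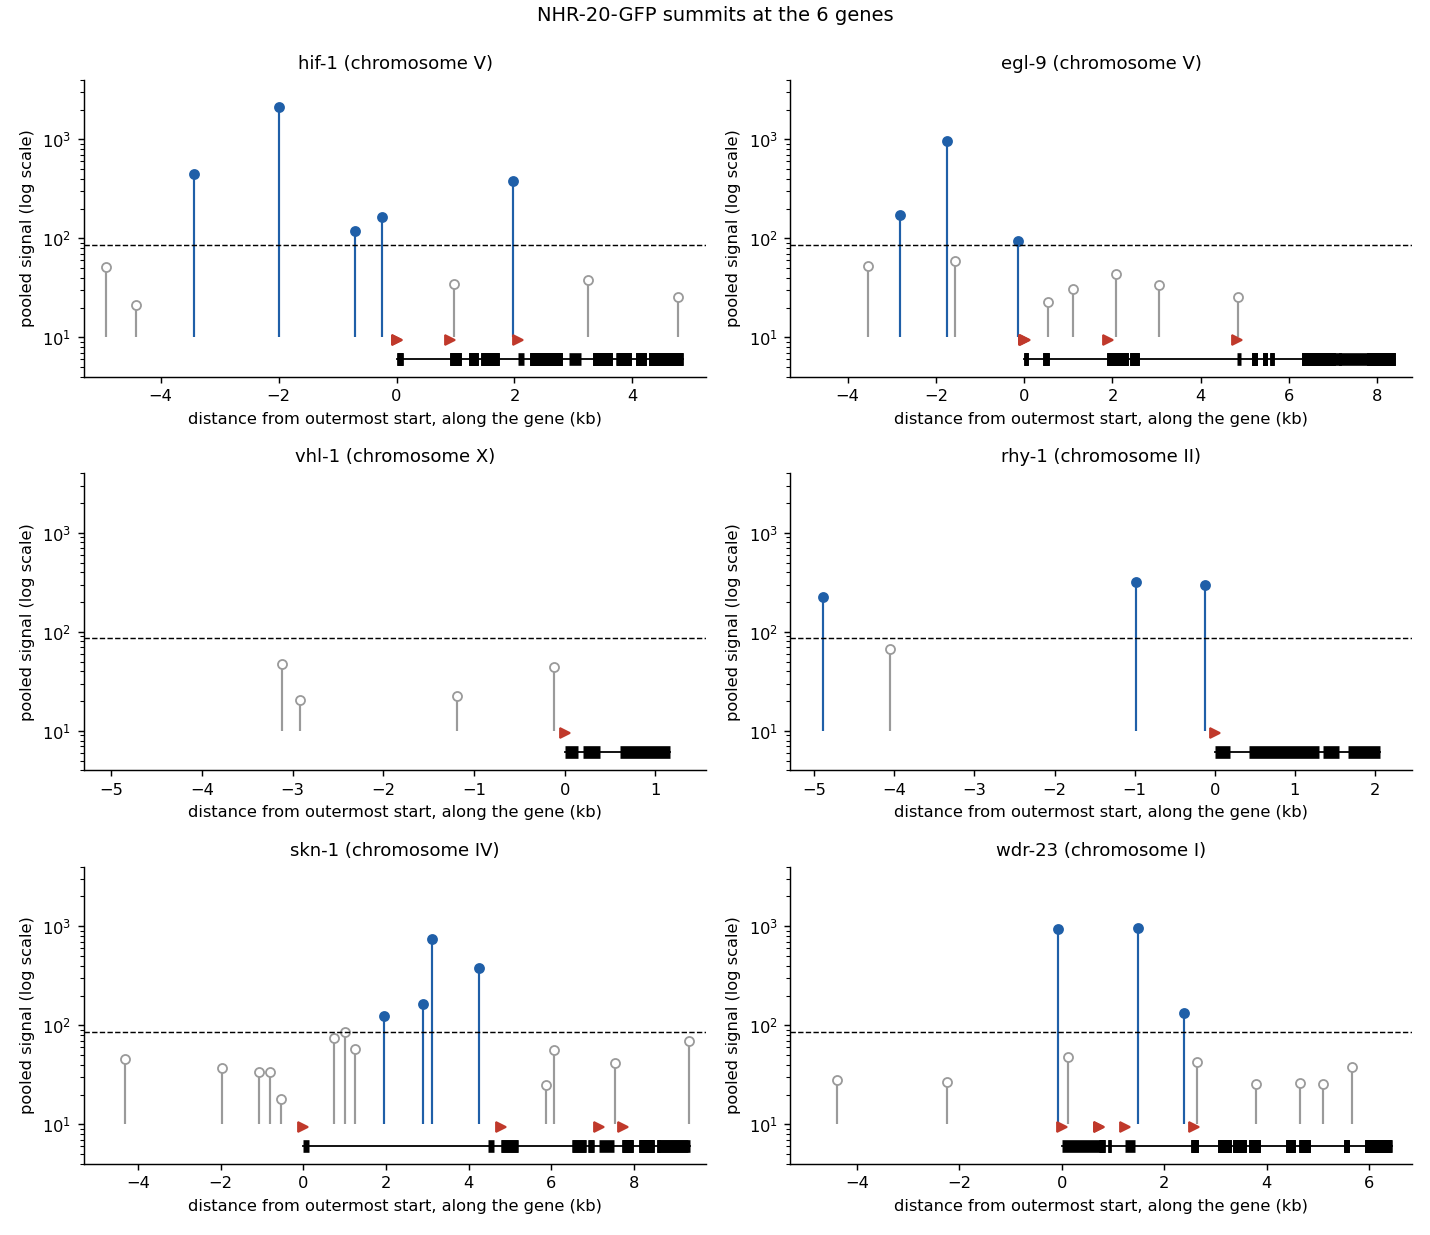
Pooled signal (log scale) of each candidate summit by distance from the outermost transcript start, in kb along the gene, in a panel for each of the 6 genes. Filled points passed the threshold, open points did not, the dashed line marks the lowest thresholded signal (86), black boxes are exons and red arrowheads are transcript starts. The thresholded summits of egl-9 and rhy-1 all lie upstream, those of skn-1 all lie inside the long intron, and vhl-1 has none.

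Egl-9 (WBGene00001178, chrV:10468517-10476915, plus strand, 7 transcripts), the gene of the oxygen-dependent hydroxylase that marks HIF-1, had 3 thresholded summits, all upstream of its starts. The strongest, chrV:10466583-10466959 with its summit at 10466760, had an offset of -1757 bp and a signal of 961.2, rank 118. Its rank was 117 in replicate 1 (signal 600.4) and 127 in replicate 2 (signal 364.6), so the 3 lists placed it almost alike. The summit was 64 bp from the start of the noncoding RNA gene F22E12.9, and the divergent gene F22E12.3 lay on its other side, at an offset of -3384 bp. From the other isoform starts of egl-9, at 10470424 (e) and 10473333 (c), the offsets were -3664 and -6573 bp.

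The other thresholded summits of egl-9 were much weaker. That at -2819 bp (chrV:10465600-10465698, signal 173.2, rank 3137, with ranks 2899 and 4003 in replicates 1 and 2) was closer to F22E12.3, 2322 bp away, than to egl-9. The summit at -134 bp (chrV:10468185-10468580), in the only promoter window of egl-9 to hold a summit, had a signal of 93.3 and rank 5937, with ranks 5364 and 7891 in the replicates. It was the thresholded summit of the 6 genes closest to the threshold on its inner side. Another 7 candidates stayed under it, with signals of 22.7 to 58.6. The strongest of these, at -1557 bp (58.6, rank 8906), sat at the edge of the main region. The others were at -3529 bp (52.6), +546 bp (22.7), +1106 bp (31), +2087 bp (43.9), +3065 bp (34.1) and +4854 bp (25.7), and those in the gene lay in coding exons or introns. The candidate at +2087 bp was 180 bp past the start of isoform e, and that at +4854 bp was 38 bp past the start of isoform c.

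Vhl-1 (WBGene00006922, chrX:11307356-11308518, plus strand, 1 transcript), which encodes the receptor that recognises hydroxylated HIF-1, was the gene with no thresholded summit. Its 4 candidates had pooled signals of 47.3 at -3116 bp, 20.4 at -2915 bp, 22.4 at -1192 bp and 44.3 at -120 bp, ranks 10678, 25461, 23039 and 11331. All 4 lay upstream, and none lay inside the gene. The candidate at -120 bp, next to the start, had rank 18162 in replicate 1 and 6446 in replicate 2, and that at -3116 bp had ranks 12921 and 10073. The candidate at -2915 bp was matched in replicate 1 alone and that at -1192 bp in neither, and the nearest start to 3 of the 4 was that of F08G12.1. Within 5 kb the lists show no region over the authors' threshold here, which does not show that NHR-20 is absent from vhl-1. The next thresholded summit upstream was at -7570 bp (signal 510.3, rank 605), 2 bp from the start of snrp-40.1. A nearer thresholded summit lay on the other side, past the 3′ end of vhl-1, 3403 bp from the candidate at -120 bp.

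Rhy-1 (WBGene00012324, chrII:9161379-9163448, plus strand, 1 transcript), the membrane-protein regulator of HIF-1, had 3 thresholded summits of similar signal. Those at -978 bp (chrII:9160229-9160533) and -127 bp (chrII:9161129-9161364) had signals of 316.4 and 300.5 and pooled ranks of 1396 and 1513. Both were promoter summits, 851 bp apart, and their order was not the same in the replicates. In replicate 1 their ranks were 1570 and 1366, and in replicate 2 they were 1245 and 1862, so the pair cannot be ordered beyond the spread of the lists. The third, at -4898 bp (chrII:9156367-9156562, signal 226.9, rank 2243, with ranks 2407 and 2242), lay close to the 5 kb limit and was nearer to oac-54, a gene on the same strand with its start 1630 bp away. A single candidate, at -4055 bp (67.8, rank 7895), stayed under the threshold, and its nearest start was also that of oac-54.

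The skn-1 gene (WBGene00004804, chrIV:5651039-5660384, minus strand, 4 transcripts) had its thresholded summits inside the gene, with none in the 5 kb upstream. Just past that limit, at -5175 bp, lay another (chrIV:5665361-5665756, signal 167.0, rank 3264), whose nearest protein-coding start was that of bec-1, 1134 bp away. All 4 of the summits counted lay in the first intron of isoform a, the longest form, whose start is at 5660384, and upstream of isoform c, which starts at 5655605. The strongest summit, at 5657278, had a signal of 747.4 and rank 259, with rank 273 (signal 452.9) in replicate 1 and 234 (signal 300.6) in replicate 2. It stood +3106 bp from the start of isoform a and -1673 bp from that of isoform c, and 40 bp from the start of the noncoding RNA gene T19E7.26. The same region, chrIV:5657058-5657606, held another summit 205 bp away, at 5657483, with a signal of 162.6 and rank 3361. That summit was less even between the replicates, with rank 2522 in replicate 1 and 7150 in replicate 2, and lay 82 bp from the start of the noncoding RNA gene T19E7.27.

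Of the 4 thresholded summits, the nearest to a transcript start of skn-1 was at 5656138 (chrIV:5656010-5656280). It lay -533 bp from the start of isoform c, with a signal of 380.1 and rank 1043. Its ranks were 831 and 1631 in replicates 1 and 2, and it was the only thresholded summit in a promoter window of skn-1. The fourth, at 5658433 (chrIV:5658235-5658630), +1951 bp from the start of isoform a, had a signal of 124.7 and rank 4447, with ranks 4609 and 4758. From the starts of isoforms b (5653229) and d (5652640), the strongest summit had offsets of -4049 and -4638 bp. The 4 summits thus form a cluster that is upstream of isoforms b, c and d and downstream of the start of isoform a.

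At skn-1, 12 candidates stayed under the threshold, the most of the 6 genes, with signals of 18 to 85.2. The highest, at +1000 bp, had a signal of 85.2 and rank 6476, with ranks 7460 and 6348, and was the candidate of the 6 genes closest to the threshold on its outer side. Near it, at +737 and +1246 bp in the same intron, were candidates of 74.1 and 57.3. Farther along the gene were candidates at +5863 bp (25) and +6068 bp (56.6), whose nearest start was that of clec-178, at +7533 bp (41.8) and at +9317 bp in the 3′ UTR (69.3). The candidate at +7533 bp was 211 bp upstream of the start of isoform d. Upstream of isoform a there were 5, at -532 bp (18), -807 bp (33.9), -1081 bp (33.7), -1958 bp (37.2) and -4309 bp (45.9). The nearest start to the last 3 was that of bec-1, the autophagy gene next to skn-1, and the candidate at -1958 bp was 35 bp from it.

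Wdr-23 (WBGene00008419, chrI:7595776-7602221, plus strand, 6 transcripts), the gene of the receptor that hands SKN-1 to its ligase, had 3 thresholded summits, each in a promoter window of its own isoforms. The strongest, chrI:7596873-7597489, had its summit at 7597256, a signal of 954.6 and rank 123, with rank 93 (signal 643.9) in replicate 1 and 197 (signal 320.5) in replicate 2. It lay at +1480 bp from the outermost start, +242 bp from the start of isoform b and -1097 bp from the shared start of isoforms d and e. Nearly as strong was the summit at 7595697 (chrI:7595452-7595963), at -79 bp, with a signal of 941.6 and rank 130 and ranks of 122 and 161 in the replicates. In replicate 2 the order of the pair was the other way round, so they cannot be ordered.

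The third wdr-23 summit, at 7598170 (chrI:7597972-7598367), +2394 bp from the outermost start and -183 bp from that of isoforms d and e, was far weaker, with a signal of 134.7 and rank 4093, and ranks 4363 and 3958. It was also within 5 kb of the start of aex-1, at -4137 bp. Another 8 candidates stayed under the threshold, with signals of 25.6 to 47.5. They were at -4390 bp (27.9), -2247 bp (26.5), +125 bp in the 5′ UTR (47.5), +2647 bp (42.7), +3788 bp (25.6), +4650 bp (26.2), +5095 bp (25.6) and +5664 bp (38.3). The candidate at +2647 bp was 70 bp past the start of isoforms d and e. The outermost start of wdr-23 used here is that of a transcript in the Ensembl models, and from the start of isoform c, at 7596505, the summit at 7595697 had an offset of -808 bp.

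Place was judged by the exons of the gene itself, not those of its neighbours. It was not tallied over all thresholded summits, so no trait of the 6 genes is read from it. By that rule their thresholded summits lay upstream or in introns. Of the 18, 11 were upstream and 7 in introns, with 0 in an exon, while the 37 candidates under the threshold included 7 in coding exons, 2 in 3′ UTRs and 1 in a 5′ UTR. A promoter window of the gene itself held 10 of the 18, and the rest lay in no promoter window of any gene. Over the whole list a similar share, 56.2% of summits, lay in a promoter window of some gene. Another gene was closer for some: 3 of the 18 were nearest to the start of another protein-coding gene (F38A6.4, F22E12.3 and oac-54), and 8 were also within reach of another gene by the same rule. Neither share was tallied over all thresholded summits, so no trait of the 6 genes is read from these counts. At egl-9 and skn-1, 3 of the 18 lay within 200 bp of the start of a noncoding RNA gene. Of all thresholded summits, 17% lay that close to the start of a gene of any type other than protein-coding. A ChIP summit shows where the receptor was recovered, not which of the neighbouring genes, if any, it acts on.

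Both replicates held all 18 thresholded summits, each with a candidate summit within 200 bp, and the farthest was 18 bp away in replicate 1 and 60 bp in replicate 2. Over the whole thresholded list 98.5% of summits were matched in both. The authors set the threshold by an irreproducible discovery rate, which weighs agreement between replicates, so these matches follow in part from how the list was made. Taking only the 6423 strongest regions of each replicate, all 18 were found in replicate 1 and 16 in replicate 2. The exceptions were the egl-9 summit at -134 bp and the weaker summit of the double region at skn-1, the pair with the lowest ranks in replicate 2. Of the 18, 13 ranked higher in replicate 1 than in replicate 2, while over all matched summits 53.3% did. Of the 37 candidates under the threshold, 28 were matched in replicate 1, 25 in replicate 2 and 19 in both. Matches were not tallied over all candidates under the threshold, so no trait of these genes is read from these counts. These counts are upper limits, since pooled summits could share a match. The egl-9 candidate at -1557 bp took the main egl-9 summit, 191 bp away, in replicate 2. The skn-1 candidates at +5863 and +6068 bp took the same replicate 1 candidate.

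**Figure D3:**
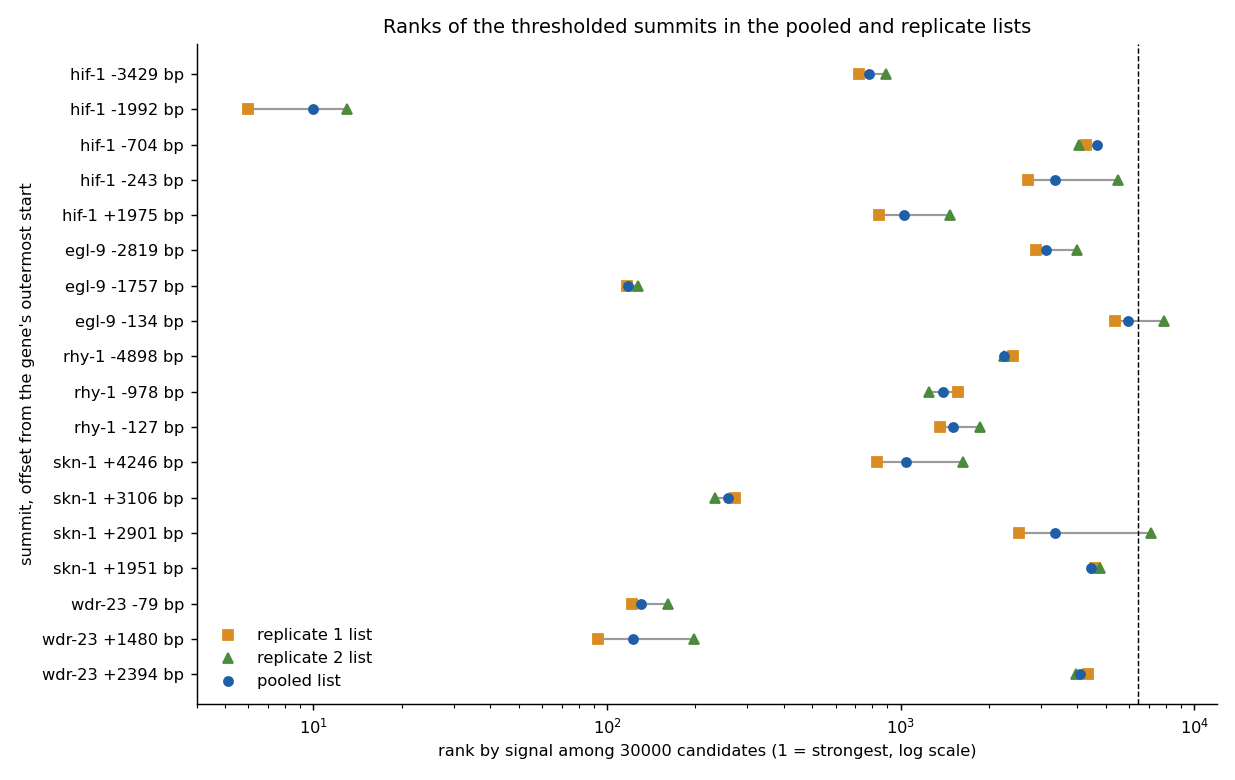
Rank by signal (log scale, 1 is the strongest of 30000) of each thresholded summit of the 6 genes in the pooled list, in replicate 1 and in replicate 2, by gene and offset from the outermost start. The dashed line marks rank 6423. The main summits of hif-1, egl-9, skn-1 and wdr-23 keep high ranks in all 3 lists, and 2 summits lie past the line in replicate 2.

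AGGTCA and the 5 words marked in the sequences were counted in the 201 bases around each of the 18 summits, on both strands. AGGTCA, the core site of many nuclear hormone receptors, was in none of the 18 windows and in 8.41% of all 6423 thresholded windows. TACGTG, the HIF-1 word, was in 4 windows and in 5.18% of all, namely the egl-9 summit at -1757 bp, the rhy-1 summits at -4898 and -978 bp with 2 copies each, and the skn-1 summit at 5656138. None of the hif-1 windows held it. The SKN-1 core words TGTCAT and TATCAT were in 5 and 7 windows, and in 12% and 14% of all. TGATAA, the site of GATA factors, was in 4 windows and in 23.4% of all, and GAGAGA was in 9 and in 39.6% of all. Matches of TATCAT and of TGATAA can share bases, as they do at rhy-1. The hif-1 main window, with a GC content of 49.3%, stood above 84.9% of all windows, and the 18 windows ran from 30.8% to 49.3% around a median of 39.6%, against a median of 41.3% over all. These are words in short windows, not sites shown to be used.

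Around these genes, the rest of the hypoxia pathway was looked at as a list of 16 genes, of which 13 (81.2%) had a thresholded summit and 10 had one in a promoter window, against 38.4% and 20.6% of all genes. The list was put together with earlier results of these data known. Only cysl-2 had at least 3 summits and only cysl-1 reached the strongest 5%, and the median strongest signal over genes with a summit was 234.6, against 213.8 over all such genes. The list's median stretch was 7898 bp. Aha-1, the partner of HIF-1, had 1 summit at -284 bp with a signal of 234.6 and rank 2136, also in the promoter window of C25A1.15.

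Of the VHL ligase components, 3 of 4 had a summit, 2 of them in a promoter window of their own: the elongin C gene elc-1 (422.9, at -1700 bp), the elongin B gene elb-1 (336.7, at -177 bp) and the RING-finger gene rbx-1 (155.9, at -389 bp). The elc-1 summit was in the promoter window of Y82E9BR.3, and that of elb-1 was also in the windows of Y41C4A.11 and Y41C4A.9. Cul-2, the scaffold of the ligase, had 7 candidates and no thresholded summit. Both genes that act on EGL-9 had one: cysl-1, whose product binds EGL-9 and keeps it from HIF-1, had a summit of 920.1, rank 141, at -4237 bp, and swan-1, which encodes a WD-repeat protein that binds EGL-9, had one of 225.7 at -1472 bp. The cysl-1 summit was in the promoter window of another gene, ZC506.1, and neither gene had a summit in its own. Among genes whose expression responds to HIF-1, 7 of 9 had a summit, each with one in a promoter window. Over all genes, 38.4% had a summit and 20.6% a promoter summit. Nothing is read from the counts of these roles, which hold few genes chosen with earlier results known. The strongest were at nhr-57 (554.3, rank 496, at -215 bp), the cysteine synthase-like gene cysl-2 (547.4, rank 511, at -2577 bp, one of 4 summits) and the cysteine dioxygenase gene cdo-1 (271.9, at -837 bp). That cysl-2 summit was in the promoter window of dhs-8, and the promoter summit of cysl-2 itself was another. Named after their values were seen, phy-2 and ftn-1 were the genes of this group without a summit.

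**Figure D4:**
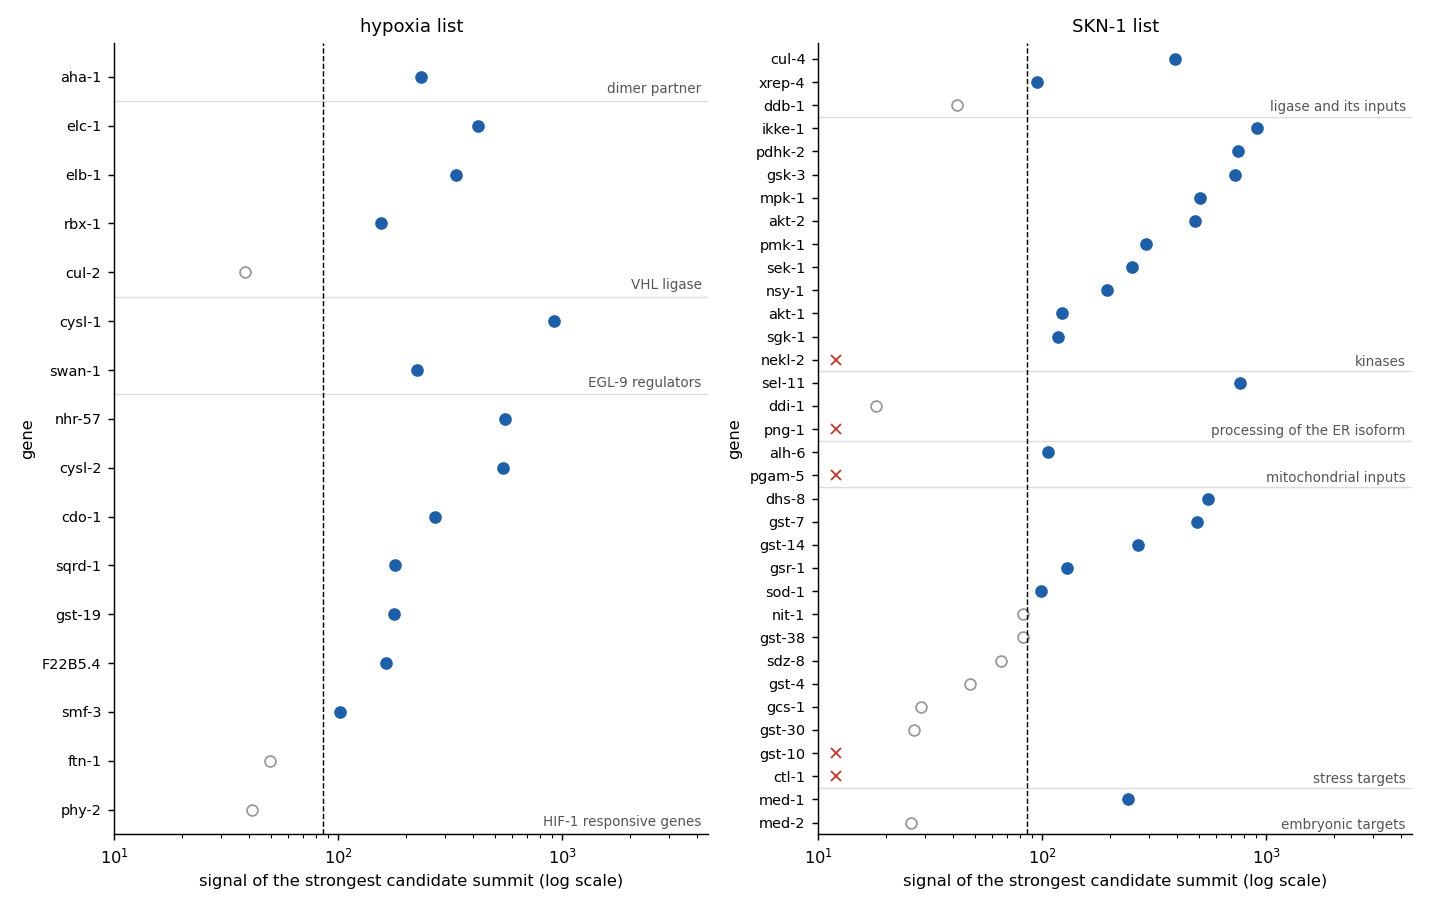
Signal (log scale) of the strongest candidate summit of each gene of the hypoxia list (left) and of the SKN-1 list (right), grouped by role. Filled points are thresholded, open points are under the threshold, crosses mark genes with no candidate and the dashed line is the lowest thresholded signal (86). Filled points make up 13 of 16 genes on the left and 20 of 34 on the right, with most kinases filled and most stress targets not.

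The list around SKN-1, put together in the same way, had 34 genes, of which 20 (58.8%) had a thresholded summit and 11 a promoter summit, against 38.4% and 20.6% of all genes, over a median stretch of 7522 bp. Of the 34, 4 genes reached the strongest 5% and 2 had at least 3 summits, against 2.97% and 4.09% of all genes. The upstream kinases had a summit at 10 of 11 genes and a promoter summit at 3 of 11, beside the same 38.4% and 20.6% of all genes. Their strongest were at ikke-1 (913.3, rank 143, at -3370 bp), the pyruvate dehydrogenase kinase gene pdhk-2 (748.1, rank 257, at -226 bp) and gsk-3 (727.0, rank 276, at -3241 bp). The strong ikke-1 and gsk-3 summits were in promoter windows of other genes, R107.5 and cls-2 for the former and Y18D10A.4 for the latter. Nekl-2, named after its value was seen, had no candidate.

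Of the ligase that WDR-23 serves, cul-4 had a summit of 390.2 at -236 bp, xrep-4, an F-box gene that acts on WDR-23, had one of 94.4 at +22 bp, and ddb-1 had 6 candidates under the threshold. For the processing of the endoplasmic reticulum form of SKN-1, sel-11 had a summit of 766.5, rank 240, at -2747 bp in the promoter windows of F55A11.1 and syx-5, while png-1 had no candidate and ddi-1 had 1 under the threshold. Of the mitochondrial inputs, alh-6 had a summit of 106.5 at -198 bp, also in the promoter window of fcho-1, and pgam-5 had no candidate.

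Among the downstream targets of SKN-1, a summit was found at 5 of 13 stress targets (38.5%), close to the 38.4% of all genes, and each of the 5 had one in a promoter window. The strongest were at dhs-8 (547.4, rank 511, at -998 bp, the same summit as that of cysl-2), gst-7 (493.0, rank 642, at -95 bp) and gst-14 (267.7, at -107 bp). Gcs-1 and gst-4, the usual reporters of SKN-1 activity, had 2 and 5 candidates and no thresholded summit, and were named after their values were seen. Med-1, an embryonic target, had 1 summit of 240.7 at -4949 bp, in the promoter window of T24D3.2, and med-2 had none. Med-1 and med-2 are near-identical copies, as are parts of the gst family, so reads may be split among them and these values are uncertain.

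Genes were also sought whose strongest summit, like that of hif-1, lay 1500 to 2500 bp upstream. There were 970 besides hif-1, with a median signal of 200.8, and 5 of them had a stronger summit than hif-1. By the difference in log2 signal, the 5 genes most like hif-1 were rnf-113 (0.01 above, signal 2130, rank 9, at -1613 bp), dct-11 (0.04, 2164, rank 7, at -1521 bp), Y17G9B.4 and tctn-1 (0.07, 2220, rank 5, at -2051 and -2236 bp, one shared summit) and sup-26 (0.08, 2226, rank 4, at -1925 bp). The rnf-113 summit was in the promoter windows of K01G5.10 and tasp-1, that of dct-11 in the window of puf-9, and that of Y17G9B.4 and tctn-1 in the windows of Y17G9B.5 and rpl-18A. Of the 5, sup-26 alone, like hif-1, had its strong summit in no promoter window, and it had 6 thresholded summits against 5 for hif-1. There were 131 genes, 0.656% of all, with at least 5 thresholded summits.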

How the data were processed

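Binding of NHR-20 with GFP and FLAG tags was measured by ChIP-seq in 1 group of 2 biological replicates of L1 larvae. The authors deposited peak lists on the ce10 and ce11 builds: 30000 candidate regions per replicate and for the pooled replicates, and a thresholded list of 6423. The deposited signal column is a score of the peak caller, of a scale not given, and the deposited −log10 q-value was 4.18, the highest, in every thresholded region. Which aligner, caller and threshold they used is not given in the sources used here, and sequencing depth is unknown. The ce11 lists were the main data. Control reads were not analysed here.

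Summits were assigned to gene models of Ensembl release 115 on WBcel235, with RefSeq symbols for 19965 of 19973 protein-coding genes, in Python 3.11.15 with pandas 2.3.3 and numpy 2.4.6. Ranks are by signal within a list. A pooled summit was matched in a replicate by the nearest candidate summit within 200 bp. Summit assignment and word search were checked on simulated data. The members and both lists were chosen with earlier results of these data known. Genes named were the 6 genes, genes sharing or nearest to their thresholded summits, the 3 strongest of each role in both lists, every gene of a role in which no gene had a summit (there was no such role), and the 5 most like hif-1. Neighbours of weaker candidates, owners of promoter windows, noncoding RNA genes, genes at summits past 5 kb and some list genes without a summit were named after their values were seen. Alternatives changed the signal minimum, the upstream reach, the assignment rule, the replicate, the build, the gene models and the match distance.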

Additional observations from a re-analysis of the deposited data

How the results depend on the processing

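Counts of genes with a summit, of summits and of replicate matches stayed within 1.5 times those reported under every alternative run but 1. With promoter windows in place of the 5 kb reach, thresholded summits at the 6 genes fell to 10 from 18 and genes of the SKN-1 list with a summit to 11 from 20. Taking the strongest regions of a single replicate, without replicate 1 and without replicate 2 in turn, 5 and 5 of the 6 genes had a summit, with 19 and 20 summits in all. The hypoxia list then had 13 and 13 genes with a summit, the SKN-1 list 21 and 20, and the main hif-1 summit ranked 13 and 6, which are simply its ranks in replicates 2 and 1. At least 3 summits were found at 2 genes with summits at or above the median signal, 3 with a 2 kb reach, 3 by the nearest start, 2 in promoter windows and 4 without replicate 1 (egl-9 had 2), in place of 5. With a reach of 10 kb, vhl-1, egl-9 and skn-1 each gained 1 summit, so 6 of the 6 genes had one, as did 50.8% of all genes. On ce10 the hif-1 summit also ranked 10. No paired analysis was possible because the series has 1 group. The depth is unknown, so a weak candidate and a region too thinly sequenced cannot be told apart.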
